A study of Mus musculus with 6 samples.

Results

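The 31 genes described here carry out or control cholesterol synthesis, uptake, storage and export, and were chosen by symbol from the 56847 gene rows of liver RNA-seq tables. All 31 symbols matched an Ensembl gene row, and all 31 passed the filter on low counts, so they were tested among 14215 genes. Poly(A) RNA was sequenced from mouse liver in 6 libraries, of which 3 came from mice fed CDAHFD and 3 from mice fed a normal diet. CDAHFD is rich in fat, lacks choline, supplies defined amino acids in place of whole protein, and is used to induce steatohepatitis in rodents. The labels state diet as the difference between the groups. Strain, genotype, sex, age, time on the diet and the number of animals behind a library are not stated in the labels, so the p-values reflect only how these libraries vary, which may be partly technical. The submitters name lipid metabolism and mitochondrial function as their interest, and the series title concerns ALDH18A1 in metabolic dysfunction-associated steatohepatitis.

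Liver cells make cholesterol from acetyl-CoA through mevalonate and farnesyl diphosphate, which squalene synthase commits to sterols. The transcription factor SREBP2, product of Srebf2, is carried from the endoplasmic reticulum to the Golgi by SCAP when sterols are low and turns on most genes of the pathway, while the INSIG proteins hold it back when sterols are plentiful. Surplus cholesterol is esterified by the SOAT enzymes, passed to lipoproteins by ABCA1 and ABCG1, or sent into bile by the ABCG5 and ABCG8 pair, genes that oxysterol-sensing LXR receptors turn on.

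Genes of the list moved in different directions on CDAHFD. Of the 31 genes, 4 were called higher and 18 lower by edgeR's quasi-likelihood test at an adjusted p of 0.05, and 9 did not pass. Over all 14215 genes tested, 28.5% were called higher and 23.5% lower. The median log2 fold change of the 31 genes was -0.45, beside a median of 0.01 over all genes tested. Libraries of the diets did not overlap for 4 genes that were higher and 19 that were lower on CDAHFD, where 32.2% and 28.4% of all genes tested did so. Fold changes are CDAHFD over normal diet on the log2 scale with their standard errors, and levels are CPM, counts relative to the library size after TMM scaling (trimmed mean of M-values), with n = 3 libraries per diet throughout.

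How libraries are scaled shifted these counts. Scaling by total counts moved the median log2 fold change of all genes up by 0.32, and scaling to the summed hepatocyte markers by 0.47. That sum was mostly Alb, as given below, so this scaling largely follows Alb. With total counts 9 of the 31 genes were called higher and 10 lower, where 44% and 8.07% of all genes were. On log2(TPM + 1), TPM being the level corrected for gene length and library total, 9 were higher and 7 lower, with 45.4% and 6.31% of all genes. Scaled to the hepatocyte markers, 11 were higher and 4 lower, with 51.4% and 4.61% of all genes. No gene called lower with TMM was called higher with another scaling. The same call was made under every scaling for 8 genes: Mvk, Srebf2, Soat1 and Abcg1 were higher and Idi1, Nsdhl, Tm7sf2 and Stard4 lower. Fdps and Fdft1 did not pass under any of them.

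**Figure D1:**
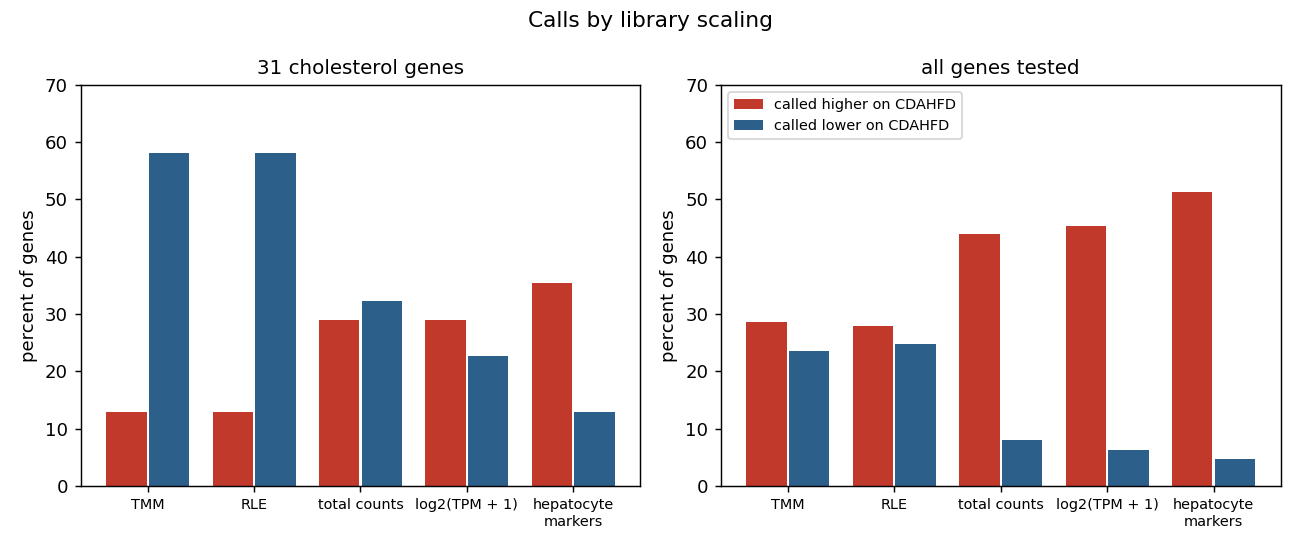
Percent of genes called higher (red) or lower (blue) on CDAHFD under 5 ways of scaling, for the 31 cholesterol genes (left) and for all genes tested (right). With TMM 18 of the 31 genes were lower, and with hepatocyte markers 4 were.

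The libraries held 21986215 to 25628531 counts and showed the markers of liver, with other cell types changing beside the diet. Hepatocyte markers summed to 103660 to 117726 CPM on CDAHFD and 143124 to 167033 CPM on normal diet, and 12 of 14 were lower, Alb by 0.47 ± 0.15, while Hpx rose by 1.01 ± 0.18. Alb alone held 67791 to 76933 CPM of this sum on CDAHFD and 92016 to 110500 CPM on normal diet. Macrophage markers summed to 1814 to 1906 CPM on CDAHFD and 408 to 553 CPM on normal diet, with 11 of 14 higher, among them Lyz2 (3.00 ± 0.14) and Gpnmb (10.59 ± 0.22), and none at 0 in all libraries. Stellate cell and matrix markers were higher in 10 of 10 cases, Col3a1 by 3.87 ± 0.20 and Reln by 0.89 ± 0.11. Of the sinusoidal endothelial markers 2 of 8 rose (25%, near the 28.5% of all genes), with Stab1 at 0.67 ± 0.13 and Fcgr2b not passing (0.18 ± 0.10). Cholangiocyte markers rose in 5 of 5 tested cases, Spp1 by 2.72 ± 0.13 and Sox9 by 1.08 ± 0.25. Lymphocyte and neutrophil markers also rose, in 5 of 6 and 2 of 2 tested cases, of 6 and 4 listed. Among them were Cd8a (3.50 ± 0.46), Cd3g (2.39 ± 0.36), S100a9 (4.40 ± 0.43) and S100a8 (3.54 ± 0.35). These levels were low. Lymphocyte markers summed to 9.92 to 18.2 CPM on CDAHFD and 2.55 to 3.70 CPM on normal diet. Neutrophil markers summed to 5.31 to 10.8 CPM on CDAHFD and 0.589 to 0.637 CPM on normal diet. The part of these cell types in the changes below was not tested. In whole tissue, fewer cells of a type and less RNA per cell cannot be told apart.

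Promoter windows were searched for exact letters that SREBP2 and its partners can read. RefSeq (GRCm38.p6, another build than the GRCm39 of the submitters' processing notes) held windows from 250 bases before to 50 after a transcription start for 25 of the 31 genes. The sterol regulatory element TCACNCCAC, on either strand, was found in the window of 1 gene, Hmgcs1, and in 1.24% of 32544 windows of all genes. The box CCAAT of the factor NF-Y was present for 22 of the 25 genes (37.4% of all windows, 68.8% of the 32 windows of these genes), and the Sp1 box GGGCGG for 21 (35.9% and 75%). No matches of these motifs overlapped in the windows of the 25 genes. The sequences below run 5′ to 3′ on the strand of the gene with all matches of the 3 motifs, on either strand, in capitals, and are shown for the gene with the sterol element, the largest fall, the synthesis gene that rose, the largest rise and the shared start of the biliary exporters.
Hmgcs1 at chr13:119690101-119690400, plus strand, with the sterol element 137 bases before the start: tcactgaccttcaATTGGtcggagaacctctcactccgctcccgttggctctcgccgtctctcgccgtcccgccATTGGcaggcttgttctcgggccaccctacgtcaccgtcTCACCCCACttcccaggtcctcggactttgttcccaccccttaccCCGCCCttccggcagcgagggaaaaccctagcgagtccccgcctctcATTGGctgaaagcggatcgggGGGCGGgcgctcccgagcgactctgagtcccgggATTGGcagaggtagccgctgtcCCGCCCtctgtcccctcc
Tm7sf2 at chr19:6067801-6068100, minus strand: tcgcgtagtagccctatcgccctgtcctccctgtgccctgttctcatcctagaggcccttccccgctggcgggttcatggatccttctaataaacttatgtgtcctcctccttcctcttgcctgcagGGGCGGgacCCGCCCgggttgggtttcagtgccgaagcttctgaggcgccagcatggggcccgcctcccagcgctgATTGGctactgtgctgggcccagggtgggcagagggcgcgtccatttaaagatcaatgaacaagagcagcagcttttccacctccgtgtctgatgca
Mvk at chr5:114444019-114444318, plus strand: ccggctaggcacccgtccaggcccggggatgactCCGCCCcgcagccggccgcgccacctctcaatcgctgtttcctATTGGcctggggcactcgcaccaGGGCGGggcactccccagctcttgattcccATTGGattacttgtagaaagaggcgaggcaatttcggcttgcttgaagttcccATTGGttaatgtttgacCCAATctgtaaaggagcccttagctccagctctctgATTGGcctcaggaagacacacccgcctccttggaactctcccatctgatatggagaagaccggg
Soat1 at chr1:156474279-156474578, minus strand: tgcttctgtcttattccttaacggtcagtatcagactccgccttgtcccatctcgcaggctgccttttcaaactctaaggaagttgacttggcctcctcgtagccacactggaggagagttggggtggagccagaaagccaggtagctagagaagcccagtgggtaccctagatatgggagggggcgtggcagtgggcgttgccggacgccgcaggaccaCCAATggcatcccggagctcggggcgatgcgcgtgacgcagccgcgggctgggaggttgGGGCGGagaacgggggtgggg
Abcg8 at chr17:84682871-84683170, plus strand: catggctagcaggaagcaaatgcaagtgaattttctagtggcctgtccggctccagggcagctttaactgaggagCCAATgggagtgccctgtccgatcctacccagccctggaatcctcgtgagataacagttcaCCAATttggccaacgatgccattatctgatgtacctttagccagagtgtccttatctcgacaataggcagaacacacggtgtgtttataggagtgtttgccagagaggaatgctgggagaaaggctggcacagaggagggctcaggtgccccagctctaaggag
The gene with the sterol element, Hmgcs1, did not pass the test with TMM. The windows of Mvk, Soat1 and Srebf2, which rose with TMM, held 5, 1 and 1 NF-Y boxes. Among genes that fell, those of Nsdhl, Hsd17b7, Msmo1 and Tm7sf2 held 4, 3, 3 and 1, and those of Acat2, Abca1 and Scap 0. A link between these numbers and direction was not tested, and few genes rose. Abcg5 and Abcg8 start 110 bases apart on opposite strands, so their windows share 209 bases. A match is a description of letters and not of a bound site. A window without these exact letters does not show that a gene lacks such a site.

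The early enzymes, which carry acetyl-CoA to farnesyl diphosphate, split in direction. Mvk rose, 3 of the 7 fell (Acat2, Pmvk and Idi1), and Hmgcs1, Mvd and Fdps did not pass. Over all genes tested, 28.5% rose and 23.5% fell. Mvk, mevalonate kinase, had 19.3, 20.2 and 21 CPM in the CDAHFD libraries, against 11.5, 12.6 and 15.4 CPM in the normal diet libraries. The groups did not overlap, and the log2 fold change was 0.61 ± 0.13 (adjusted p = 0.00256). It was higher under every scaling, at 0.94 with total counts and 1.08 with hepatocyte markers.

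Idi1, the isopentenyl diphosphate isomerase, moved the other way. It had 16.8, 17.7 and 14.5 CPM on CDAHFD and 30.5, 46.3 and 32.5 CPM on normal diet. Every CDAHFD library lay below every normal diet library, with a spread on normal diet that was the widest of all 31 genes (coefficient of variation 23.6%). Its change was -1.16 ± 0.16 (adjusted p = 0.000133), and -0.69 when scaled to hepatocyte markers.

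Acat2, the cytosolic acetoacetyl-CoA thiolase at the head of the pathway, had 22.1, 26.4 and 29.4 CPM on CDAHFD and 44.3, 43.1 and 39.7 CPM on normal diet. All 3 CDAHFD libraries were below the normal diet ones, and it fell by 0.70 ± 0.12 (adjusted p = 0.000591), a call that was kept with total counts (adjusted p = 0.0241) and lost with hepatocyte markers (adjusted p = 0.24). A near-identical neighbouring gene, Acat3, exists in the mouse, and how the authors assigned shared reads is not stated in the labels. Pmvk, phosphomevalonate kinase, fell by 0.51 ± 0.15, with 18.2 ± 0.458 CPM on CDAHFD and 26 ± 5.19 CPM on normal diet (mean ± SD). Its adjusted p of 0.0117 became 0.0537 without normal diet replicate 1, and it did not pass with total counts, where it stood at -0.19.

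Hmgcs1, the cytosolic HMG-CoA synthase, had 66.8, 80.4 and 73.5 CPM on CDAHFD and 62.5, 73.3 and 57.8 CPM on normal diet. These ranges overlap, and the log2 difference of 0.19 ± 0.12 did not pass with TMM (adjusted p = 0.205), though it was called higher with total counts (0.51, adjusted p = 0.00365). Mvd, mevalonate diphosphate decarboxylase, behaved alike, at 0.30 ± 0.18 with TMM (adjusted p = 0.18) and 0.63 with total counts (adjusted p = 0.0104). Fdps, farnesyl diphosphate synthase, varied most between CDAHFD libraries (85.1, 119 and 127 CPM, against 151, 109 and 164 CPM on normal diet). Its difference of -0.35 ± 0.18 did not pass (adjusted p = 0.111). It was called lower without normal diet replicate 2, at -0.52 (adjusted p = 0.0224), and with no filter on low counts, at -0.35 (adjusted p = 0.0208).

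The later enzymes, from squalene synthase to cholesterol, were lower in 8 of 11 cases with TMM, and 0 rose, beside 23.5% and 28.5% of all genes. Summed, they reached 786 to 863 CPM on CDAHFD and 1241 to 1346 CPM on normal diet. The 3 that did not pass were Fdft1, Sqle and Dhcr7, which include the step that makes squalene and the one that oxidises it. Scaled by total counts, 5 of the 11 stayed lower (Cyp51, Tm7sf2, Nsdhl, Hsd17b7 and Sc5d) and Sqle became higher. With that scaling 8.07% of all genes were lower and 44% higher.

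Tm7sf2 showed the largest fall of the 31 genes. It encodes a sterol reductase acting right after the demethylase CYP51, a step that the nuclear envelope protein LBR can also perform. The CDAHFD libraries had 27.1, 32.6 and 30.7 CPM, against 128, 83.2 and 102 CPM in the normal diet libraries. The highest CDAHFD library was thus far below the lowest on normal diet, and the change was -1.79 ± 0.15 (adjusted p = 3.32e-06), a 3.46-fold lower level. Lbr, at 8.35 CPM on CDAHFD and 10 CPM on normal diet, did not pass (-0.26 ± 0.13, adjusted p = 0.124), and its sign turned with total counts (0.06). Within a library, Tm7sf2 had 3.58, 3.79 and 3.46 counts for each count of Lbr on CDAHFD and 12.7, 8.22 and 10.2 on normal diet. The ratio of 2 genes does not depend on scaling, and this one was 2.84-fold lower on CDAHFD. Tm7sf2 overlaps Vps51 on the same strand in GENCODE M21, so its count may hold some shared reads.

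Nsdhl, a dehydrogenase that removes the methyl groups of the sterol ring, was lower in every CDAHFD library. It had 31.9, 35.9 and 33.1 CPM on CDAHFD and 64.1, 65.4 and 64.8 CPM on normal diet. The levels were 1.92-fold lower with no overlap, at -0.94 ± 0.10 (adjusted p = 1.36e-05), and -0.48 with hepatocyte markers (adjusted p = 0.00804). Its partners in the same demethylation were also lower with TMM, Hsd17b7 by 0.61 ± 0.10 (adjusted p = 0.000382) and Msmo1 by 0.45 ± 0.12 (adjusted p = 0.00782). Msmo1 stood at -0.13 with total counts (adjusted p = 0.365) and turned to 0.013 with hepatocyte markers.

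Cyp51, the lanosterol demethylase, had 61.7, 67.7 and 77 CPM on CDAHFD and 114, 119 and 110 CPM on normal diet. It fell by 0.73 ± 0.11 (adjusted p = 0.000222), and by 0.41 with total counts (adjusted p = 0.0108), but did not pass with hepatocyte markers (adjusted p = 0.161). Sc5d, the sterol desaturase near the end of the pathway, had 237, 243 and 214 CPM on CDAHFD and 357, 435 and 402 CPM on normal diet. It changed by -0.78 ± 0.11 (adjusted p = 0.000177), with all CDAHFD libraries below the others. Ebp, the sterol isomerase, fell by 0.63 ± 0.13 (adjusted p = 0.00202) with TMM, and total counts gave -0.31 (adjusted p = 0.0603). Lss, lanosterol synthase, fell by 0.43 ± 0.13 (adjusted p = 0.017). Its adjusted p was 0.0532 without normal diet replicate 3, and its log2 fold change turned to 0.027 with hepatocyte markers.

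The squalene steps moved less. Fdft1, squalene synthase, had 73, 70.9 and 74.6 CPM on CDAHFD and 77.3, 77 and 93.1 CPM on normal diet. The groups lay apart by a narrow gap, and the difference of -0.18 ± 0.11 did not pass (adjusted p = 0.186) and turned to 0.15 with total counts. Fdft1 overlaps the abundant cathepsin gene Ctsb on the opposite strand, and whether the counting used strand is not stated in the labels. Cyp51 likewise overlaps Akap9 on the opposite strand. Sqle, squalene epoxidase, had 29.1, 30.8 and 37.6 CPM on CDAHFD and 28.1, 26.6 and 37 CPM on normal diet, with full overlap (0.09 ± 0.15, adjusted p = 0.645). Dhcr7, the terminal reductase, gave -0.07 ± 0.12 (adjusted p = 0.652) and 0.25 with total counts (adjusted p = 0.115), and was called higher with hepatocyte markers (0.39, adjusted p = 0.0367). For each count of Fdft1 a library held 0.398, 0.435 and 0.504 counts of Sqle on CDAHFD and 0.364, 0.345 and 0.398 on normal diet, a ratio 1.20-fold higher, although the lowest CDAHFD library and the highest normal diet library were nearly equal.

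**Figure D2:**
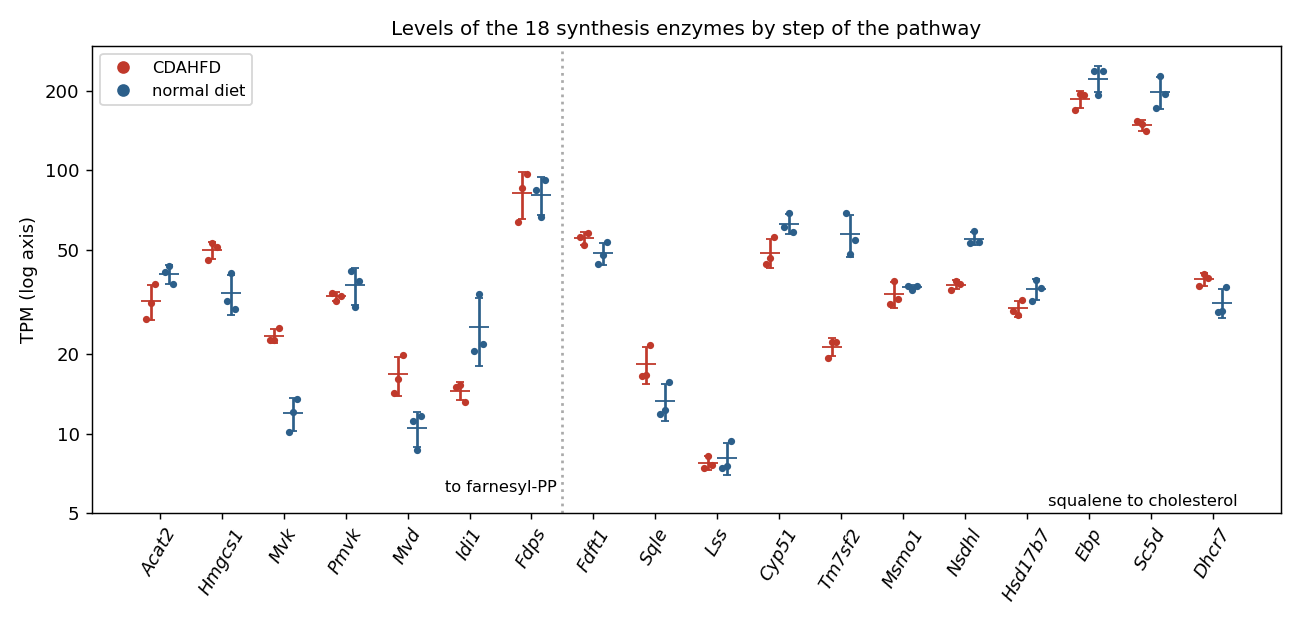
Deposited TPM (log axis) of the 18 synthesis enzymes in order of the pathway, with each library as a dot and the mean ± SD as a bar, CDAHFD in red and normal diet in blue. Tm7sf2 averaged 21.4 TPM on CDAHFD and 57.1 TPM on normal diet, and Mvk 23.5 TPM on CDAHFD and 11.9 TPM on normal diet.

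Per transcript length the enzymes differed widely from each other on either diet. Ebp and Sc5d were highest, at 186 ± 13.9 and 148 ± 6.6 TPM on CDAHFD and 223 ± 25.4 and 199 ± 28.1 TPM on normal diet. On CDAHFD the lowest enzymes were Lss (7.74 ± 0.451 TPM), Idi1 (14.5 ± 1.14 TPM), Mvd (16.8 ± 2.83 TPM) and Sqle (18.3 ± 2.92 TPM). The SDs of Idi1, Mvd and Sqle overlap, as do those of Sqle and Tm7sf2 (21.4 ± 1.71 TPM), so only the place of Lss as the lowest is resolved. Among the 31 genes Tm7sf2 stood at place 25 by mean TPM on CDAHFD and at place 10 on normal diet, and Srebf2 at place 13 on CDAHFD and 24 on normal diet. As a share of all counts, the 18 enzymes took 0.115%, 0.126% and 0.127% in the CDAHFD libraries. In the normal diet libraries they took 0.141%, 0.141% and 0.152%. This share is the summed level scaled by total counts, and it was lower in each CDAHFD library. Of the 18, 1 rose and 11 fell with TMM, 4 and 7 with total counts, and 5 and 3 with hepatocyte markers. Over all genes tested, 28.5% rose and 23.5% fell with TMM. Those shares were 44% and 8.07% with total counts, and 51.4% and 4.61% with hepatocyte markers.

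The sensing genes split, with Srebf2 up and its escort and its brake down. Srebf2 had 92.8, 88.4 and 93.8 CPM on CDAHFD and 65.2, 71 and 74.7 CPM on normal diet. All CDAHFD libraries were higher, by 0.38 ± 0.10 (adjusted p = 0.00749) with TMM, 0.71 with total counts and 0.85 with hepatocyte markers. With TMM its adjusted p reached 0.0499 on leaving out 1 library. Scap, the escort, fell by 0.50 ± 0.10 (adjusted p = 0.00166), with 89.9, 87.1 and 90.1 CPM on CDAHFD and 129, 115 and 134 CPM on normal diet, but did not pass with total counts (-0.18, adjusted p = 0.189).

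Insig1, itself a target of SREBP2, had 152, 155 and 132 CPM on CDAHFD and 230, 229 and 287 CPM on normal diet. It fell by 0.76 ± 0.12 (adjusted p = 0.00037), by 0.44 with total counts (adjusted p = 0.00905), and did not pass with hepatocyte markers (-0.30, adjusted p = 0.0954). Insig2, whose liver transcript answers to other signals, had 141, 102 and 141 CPM on CDAHFD and 132, 140 and 105 CPM on normal diet, with a difference of 0.03 ± 0.15 (adjusted p = 0.894) that reached 0.52 with hepatocyte markers (adjusted p = 0.00819). The count ratio of Insig1 to Insig2 was 1.08, 1.52 and 0.936 on CDAHFD and 1.74, 1.64 and 2.74 on normal diet, 1.72-fold lower.

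**Figure D3:**
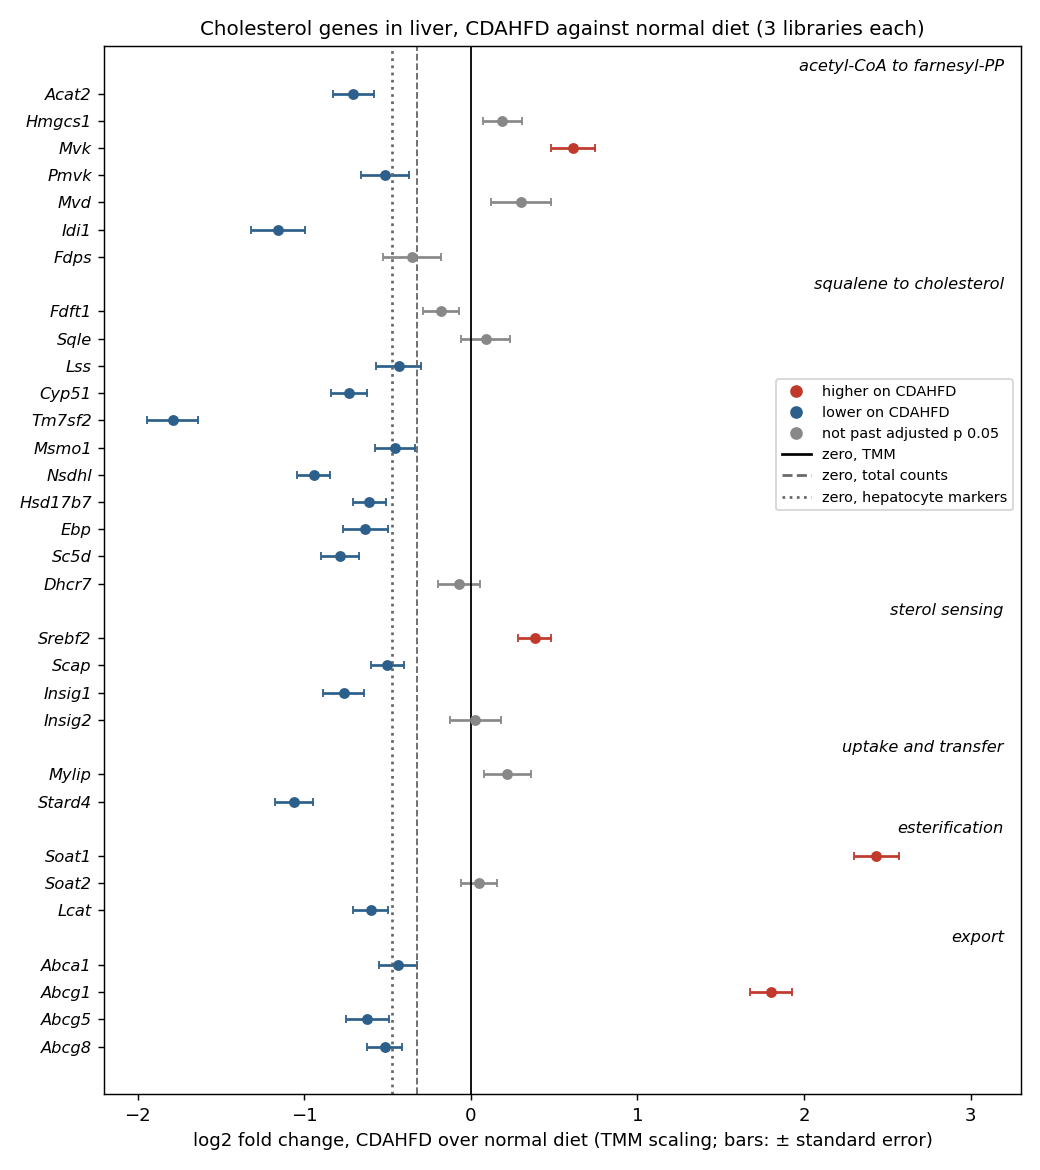
Log2 fold change (x axis, ± standard error) of the 31 genes, grouped by role, in red where called higher and blue where called lower on CDAHFD and grey otherwise. The solid line is zero with TMM, and the dashed and dotted lines show where zero lies with total counts and with hepatocyte markers, so that Soat1 and Abcg1 stay right of all 3 lines and Tm7sf2 left of them.

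Of the uptake and transfer genes, Stard4 fell and Mylip did not pass with TMM. STARD4 carries cholesterol between membranes in the cytosol. Its gene had 47.5, 59.7 and 54.5 CPM on CDAHFD and 120, 106 and 111 CPM on normal diet. No libraries overlapped, and the change was -1.06 ± 0.11 (adjusted p = 1.83e-05), or -0.59 with hepatocyte markers (adjusted p = 0.00128). Set against Hmgcs1, another gene that SREBP2 turns on, Stard4 had 0.711, 0.743 and 0.742 counts per count on CDAHFD and 1.92, 1.45 and 1.92 on normal diet, 2.39-fold lower. Mylip encodes the ubiquitin ligase IDOL, which sends lipoprotein receptors to lysosomes and is a target of LXR. It had 35.1, 24.6 and 31.1 CPM on CDAHFD and 24.7, 24.4 and 28.8 CPM on normal diet, overlapping, at 0.22 ± 0.14 (adjusted p = 0.213) with TMM and 0.55 with total counts (adjusted p = 0.0078).

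The esterification genes gave the largest rise of the list. Soat1, the acyltransferase of macrophages and many other cells, had 27.3, 28.5 and 25 CPM on CDAHFD and 5.5, 4.41 and 5.05 CPM on normal diet. The groups were far apart, at a 5.4-fold higher level (2.43 ± 0.14, adjusted p = 1.87e-07). Soat2, the form of hepatocytes and intestine, had 47.4, 41.8 and 40.8 CPM on CDAHFD and 44.9, 38.9 and 41.9 CPM on normal diet, which overlap (0.05 ± 0.11, adjusted p = 0.727, and 0.37 with total counts, adjusted p = 0.0136). For each count of Soat2 there were 0.575, 0.683 and 0.613 counts of Soat1 on CDAHFD and 0.123, 0.114 and 0.121 on normal diet. That ratio was 5.22-fold higher on CDAHFD whatever the scaling. Per length Soat2 was still the more abundant form, at 61.2 ± 5.45 TPM on CDAHFD and 45.8 ± 1.69 TPM on normal diet, where Soat1 had 8.58 ± 0.346 TPM on CDAHFD and 1.23 ± 0.0858 TPM on normal diet. The summed macrophage markers, given above, rose beside Soat1, and their part in its rise was not tested.

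Lcat, which hepatocytes secrete to esterify cholesterol on plasma lipoproteins, was the most abundant of the 31 genes per length (719 ± 38.4 TPM on CDAHFD and 845 ± 42.9 TPM on normal diet). In CPM it had 319, 300 and 308 on CDAHFD and 508, 439 and 459 on normal diet. It fell by 0.60 ± 0.11 (adjusted p = 0.000673) with TMM and by 0.28 with total counts (adjusted p = 0.0467), and did not pass with hepatocyte markers (adjusted p = 0.483).

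The exporters split between Abcg1, which rose, and the other 3, which fell with TMM. Abcg1, which moves cholesterol towards high-density lipoproteins and is well known in macrophages, had 31.1, 32.5 and 30.9 CPM on CDAHFD and 7.81, 9.51 and 9.8 CPM on normal diet. This was a 3.48-fold higher level with no overlap (1.80 ± 0.12, adjusted p = 7.34e-07). Abca1, which lipidates apolipoprotein A-I at the cell surface, had 117, 147 and 120 CPM on CDAHFD and 170, 182 and 171 CPM on normal diet. It fell by 0.44 ± 0.11 (adjusted p = 0.00764), did not pass with total counts (-0.12, adjusted p = 0.411), and turned to 0.027 with hepatocyte markers. Abcg1 had 0.265, 0.22 and 0.257 counts for each count of Abca1 on CDAHFD and 0.0462, 0.0524 and 0.0575 on normal diet, 4.76-fold higher.

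The biliary exporters Abcg5 and Abcg8, whose proteins work as a pair, fell side by side. Abcg5 had 85.7, 86.3 and 69.1 CPM on CDAHFD and 111, 142 and 118 CPM on normal diet (-0.62 ± 0.13, adjusted p = 0.00185). Abcg8 had 135, 142 and 119 CPM on CDAHFD and 188, 184 and 195 CPM on normal diet (-0.52 ± 0.11, adjusted p = 0.00173). Neither group of libraries overlapped the other for either gene, and neither gene passed with total counts (adjusted p = 0.069 and 0.145) or with hepatocyte markers. Counts of Abcg5 for each count of Abcg8 were 0.637, 0.606 and 0.579 on CDAHFD and 0.59, 0.772 and 0.606 on normal diet, which overlap, with a log2 difference of -0.10. The genes overlap on opposite strands in GENCODE M21, so without strand their reads could be mixed.

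For the 7 fixed pairs the difference in log2 ratio was tested by an exact two-sided permutation test over the 6 libraries. The exact p was 0.1, the smallest that 3 against 3 allows, for 6 pairs (0.117 adjusted over the 7 pairs) and p = 0.7 for Abcg5 and Abcg8. None could pass 0.05 in this design.

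**Figure D4:**
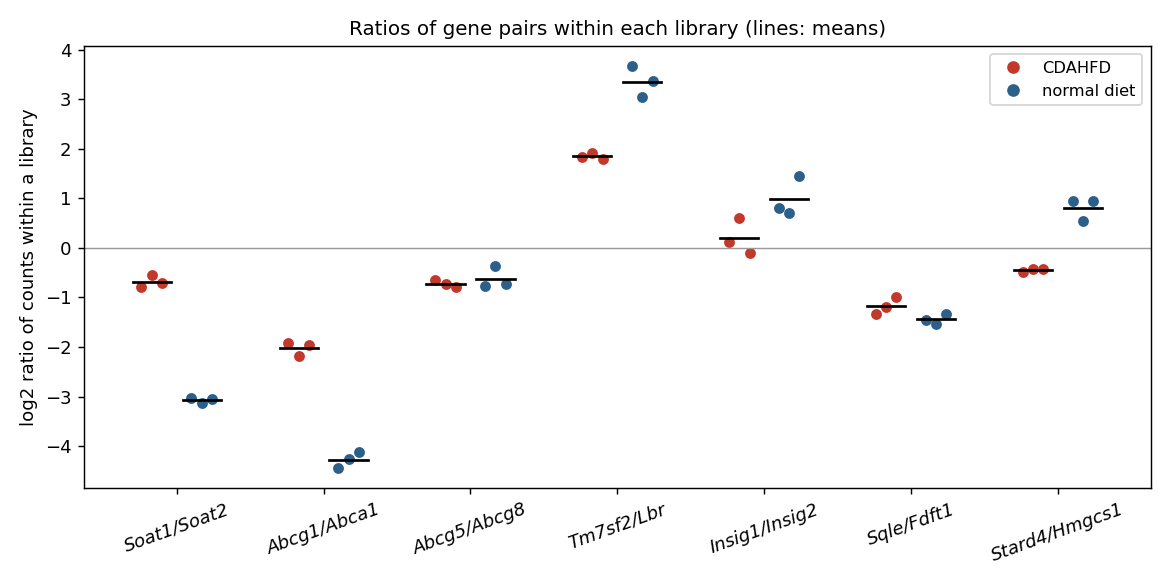
Log2 ratio of the counts of 2 genes within each library (dots) and its mean (line) for 7 pairs, CDAHFD in red and normal diet in blue. Soat1 to Soat2 averaged -0.68 on CDAHFD and -3.07 on normal diet, and the Abcg5 to Abcg8 ratio overlapped between diets.

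**Figure D5:**
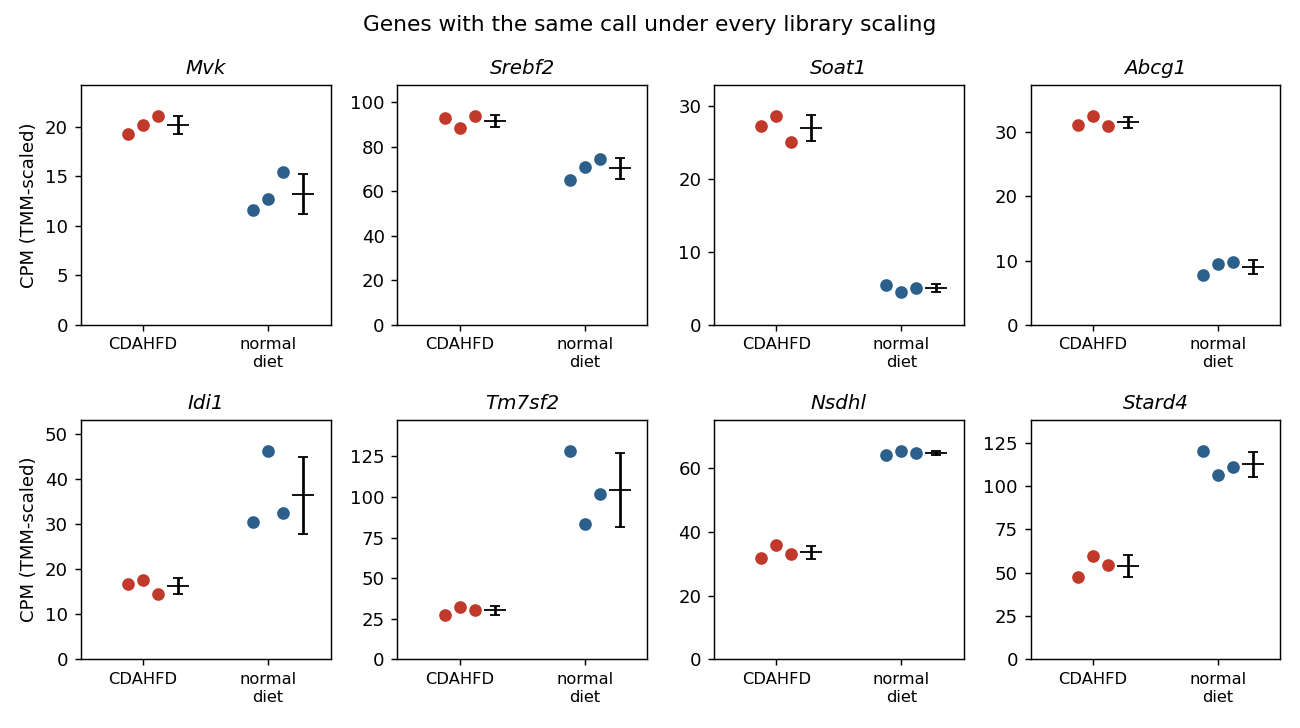
CPM (TMM-scaled, axis from 0) in each library of the 8 genes that kept their call under every scaling, with the mean ± SD beside the dots and CDAHFD left of normal diet. In all 8 panels the 3 CDAHFD libraries lie apart from the 3 on normal diet.

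Other genes of cholesterol handling, 63 in a list of 8 groups, moved both ways. Of 58 tested, 10 rose and 24 fell with TMM, beside the 28.5% and 23.5% of all genes given above, with a median of -0.24. With total counts 20 were higher and 9 lower, where 44% and 8.07% of all genes were. All 4 tested genes of oxysterol and bile acid entry fell: Cyp7b1, an oxysterol hydroxylase, by 2.87 ± 0.28, Cyp7a1, which controls the pace of bile acid synthesis, by 1.60 ± 0.39, Cyp46a1, at 0.783 CPM on CDAHFD and 1.92 CPM on normal diet, by 1.30 ± 0.30, and the sterol hydroxylase Cyp27a1 by 0.91 ± 0.11. Without CDAHFD replicate 2 the fall of Cyp7a1 was 2.26. Hsd3b7 was listed at 0 in all libraries. Ch25h of the same group was not tested for its low counts. It went the other way, at 0.38 CPM on CDAHFD and 0.049 CPM on normal diet, with no overlap of libraries. Ces1d, a lipid hydrolase with close paralogs, fell by 2.28 ± 0.20. Lipc, hepatic lipase, fell by 0.84 ± 0.10, and the 6 genes named here as falling were lower under every scaling.

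Lysosomal and membrane-transfer genes went both ways with TMM, with 3 of 9 tested uptake and lysosome genes higher and 4 lower, and 3 of 10 intracellular transfer genes higher and 5 lower. The shares that were higher, 33.3% and 30%, are near the 28.5% of all genes. The shares that were lower, 44.4% and 50%, are above the 23.5% of all genes. Those that fell with TMM included Npc1 (-0.26 ± 0.10), Scarb2 (-0.59 ± 0.10) and Osbp (-0.62 ± 0.11). Among those that rose, Npc2, which hands cholesterol out of lysosomes, did so by 1.08 ± 0.12 and Lipa, the acid lipase that frees it from esters, by 0.64 ± 0.14. Gramd1b and Gramd1a, which move plasma membrane cholesterol to the endoplasmic reticulum, rose by 1.75 ± 0.19 and 0.59 ± 0.12, and the endosomal carrier Stard3 by 0.55 ± 0.15. Scarb1, the receptor for high-density lipoprotein cholesterol, was at 332 CPM on CDAHFD and 217 CPM on normal diet (0.62 ± 0.12, adjusted p = 0.00122). Abca7, a transporter related to Abca1, rose by 0.69 ± 0.15 and Fntb, a farnesyltransferase subunit, by 0.72 ± 0.24, and these 8 were higher under every scaling. Stard3 no longer passed without CDAHFD replicate 1 (adjusted p = 0.0573), and Fntb passed only with all libraries or without normal diet replicate 3. Vldlr, a lipoprotein receptor at 1.56 CPM on CDAHFD and 3.17 CPM on normal diet, fell by 1.01 ± 0.36 with TMM (adjusted p = 0.0323) and did not pass with total counts (adjusted p = 0.113), hepatocyte markers (0.139), log2(TPM + 1) (0.257) or limma-voom (0.0619). It also did not pass without CDAHFD replicates 1 or 3 or normal diet replicate 2. Leaving out each library in turn, its change ran from -1.32 to -0.50.

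Of the other transcription factors, Nr1h3 did not pass and Srebf1 fell with TMM. Nr1h3, the LXR of liver and macrophages, had 117 CPM on CDAHFD and 115 CPM on normal diet and did not pass with TMM (0.02 ± 0.10, adjusted p = 0.856), while total counts called it higher (0.35, adjusted p = 0.0126). Srebf1, which encodes the SREBP of fatty acid synthesis, fell by 0.34 ± 0.12 (adjusted p = 0.0291) with TMM, a call lost without any 1 of CDAHFD replicates 1 or 3 or normal diet replicates 2 or 3, and stood at -0.017 with total counts.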

How the data were processed

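Total RNA from mouse liver was made into stranded mRNA libraries, per the labels' protocols. The authors deposited one table of raw counts and one of TPM, a level corrected for gene length and library total, per gene, and STAR 2.7.11a and the build GRCm39 are named per the submitters' processing notes, while the counter and its strand setting are not stated in the labels. Of 56847 gene rows, 14215 passed edgeR's filterByExpr (minimum count 10). Counts were scaled by TMM and tested with edgeR 4.0.16 (quasi-likelihood test, R 4.3.3), 3 CDAHFD against 3 normal diet libraries. P-values were adjusted by Benjamini-Hochberg across the 14215 genes, and calls needed an adjusted p under 0.05. The standard error was the coefficient divided by the root of F. Alternatives used other scalings and filters, DESeq2 1.42.0, limma 3.58.1 (voom, and log2 of TPM plus 1 or 0.1), a replicate block and each library left out. Ratios of gene pairs used counts plus 0.5 and SciPy 1.17.1. Libraries held 21986215 to 25628531 counts, and the 31 genes had 90 to 10351 counts per library. The calculation was tested on simulated data. The genes and lists were chosen with earlier results of these data known. Named beside the 31 genes were other pathway genes past the threshold with at least 1 CPM, up to 8 per direction by size, then Nr1h3, Srebf1, Scarb1 and Lbr, and the 2 most abundant markers of each cell type. A gene that this rule names is not reported here. Promoter windows came from RefSeq (GRCm38.p6).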

Additional observations from a re-analysis of the deposited data

How the results depend on the processing

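Counts of calls are given as higher and lower on CDAHFD. With total counts they were 6258 and 1147 over all genes, 9 and 10 of the 31 genes, 4 and 7 of the synthesis enzymes, and 20 and 9 of the other pathway genes, with a median of -0.13 for the 31. With hepatocyte markers they were 7303 and 656, 11 and 4, 5 and 3, and 24 and 7, and the median turned to 0.013. On log2(TPM + 1) they were 6449 and 897, 9 and 7, 4 and 5, and 21 and 7 (median -0.092), and on log2(TPM + 0.1) 6433 and 897, 9 and 7, 4 and 5, and 21 and 7 (median -0.095). Over all genes tested the median was 0.34 with total counts and 0.48 with hepatocyte markers. It was 0.29 on log2(TPM + 1) and 0.37 on log2(TPM + 0.1). The median of the 31 genes was below that of all genes under each of these. What makes the scalings differ was not tested. Log2 fold changes that turned positive were, with total counts, Fdft1 0.15, Dhcr7 0.25 and Lbr 0.061. With hepatocyte markers they were Fdps 0.12, Fdft1 0.29, Lss 0.027, Msmo1 0.013, Dhcr7 0.39, Abca1 0.027, Lbr 0.21 and Srebf1 0.12. With TPM + 1 they were Fdps 0.011, Fdft1 0.19, Dhcr7 0.29, Lbr 0.084 and Srebf1 0.027, and with TPM + 0.1 Fdps 0.011, Fdft1 0.19, Dhcr7 0.30, Lbr 0.10 and Srebf1 0.028. Leaving out each library in turn gave ranges across zero for Insig2 (-0.10 to 0.13), Soat2 (-0.053 to 0.091), Nr1h3 (-0.020 to 0.047), Sqle (-0.063 to 0.24), Dhcr7 (-0.17 to 0.047) and the log2 ratio of Abcg5 to Abcg8 (-0.17 to 0.022). Calls of the 31 genes without a library were 4 higher and 17 to 19 lower. Correlations of same-numbered libraries were -0.047, 0.069 and 0.12, and those of the other pairs ran from -0.14 to 0.089. With 3 libraries per diet these cannot settle whether replicate numbers pair the libraries. With a replicate block 4 of the 31 genes were higher and 18 lower, beside 4046 and 3311 of all genes. Hmgcs1, Mvd, Mylip, Sqle and Soat2 did not pass with TMM or RLE. They were called higher with total counts, hepatocyte markers and log2(TPM + 1). Dhcr7 and Insig2 were called higher with hepatocyte markers. Of the 18 genes lower with TMM, 4 stayed lower with hepatocyte markers. The call was the same under every scaling for 10 of the 31 genes, so for the others the scaling decided the call.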
